A study of Mus musculus with 11 samples.

Results

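The interleukin-6 (IL-6) family of cytokines, their receptors and the feedback inhibitor Socs3 were followed in mouse aortic valves 48 hours after wire injury or sham surgery. The 10 genes were chosen by symbol from the 46983 genes of the deposited count table: the ligands Lif, Osm, Il6 and Il11, the receptor chains Cntfr, Lifr, Osmr, Il6st and Il6ra, and Socs3. They were chosen because Lif and Cntfr lay in opposite directions after injury, so the injury values of the 10 genes are a description, no p is given for them, and any count of them past a threshold supports nothing. All 10 were found, and all 10 were among the 19366 genes kept by the filter on low counts. All mice were wild type, and each library came from the valve of 1 mouse. Young injured valves were from mice of 3 to 4 months (n = 3), young sham valves from mice of the same age (n = 3), aging injured valves from mice of 16 to 18 months (n = 2) and aging sham valves from mice of that age (n = 3). In injured mice a wire damaged the endothelial layer of the valve in vivo, and the control was sham surgery. No valve from an unoperated mouse was among the samples analysed here.

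Cytokines of this family signal through gp130, the product of Il6st, a receptor chain found on most cells. IL-6 and IL-11 first bind their own receptor, Il6ra or Il11ra1, and the complex then pairs gp130 with itself. LIF pairs gp130 with the LIF receptor chain, the product of Lifr, and mouse oncostatin M, the product of Osm, acts mainly through gp130 and the product of Osmr. Cntfr encodes a membrane-anchored receptor without a signalling tail of its own, which presents ligands such as ciliary neurotrophic factor and the product of Clcf1 to gp130 and the LIF receptor. The paired chains activate JAK kinases and the transcription factor STAT3, and STAT3 induces Socs3, whose product binds gp130 and dampens the signal.

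Total counts ranged from 27124000 to 36353474 per library. In 3 libraries, aging injured 1 and 2 and young sham 1, only 18641 to 19015 genes had a count, against 20411 to 22533 in the other 8. By Xist and Ddx3y counts, young injured valves were from 1 male and 2 females, young sham valves from 2 males and 1 female, aging injured valves from 2 females, and aging sham valves from 1 male and 2 females. All 7 fibroblast and valve interstitial markers and all 7 endothelial markers were detected in every group, and so were all 7 cardiomyocyte markers, whose summed level was 5310 to 22400 CPM across libraries. In such whole-valve RNA, fewer cells of a type and less RNA per cell cannot be told apart. Levels are CPM, the count of a gene relative to the library's total after TMM scaling, which sets libraries to a common level by their trimmed mean ratios, and comparisons of level between genes use the authors' RPKM, which also divides by gene length.

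By median RPKM the receptors stood above the ligands. Il6st, the shared signalling chain, was the highest of the 8 genes with an RPKM value in all 11 libraries, with a median of 53.0 RPKM and a range of 48.2 to 58.4 RPKM. Below it came Osmr with a median of 12.6 RPKM (6.45 to 14.1), Cntfr with 10.5 RPKM (6.18 to 27.2), Lifr with 8.22 RPKM (6.44 to 11.9) and Socs3 with 5.83 RPKM (3.60 to 12.4). The ranges of these 4 genes overlapped, and their order differed between libraries. Il6ra followed with a median of 2.38 RPKM (1.57 to 3.67), then Lif with 0.690 RPKM (0.487 to 2.78) and Il11 with 0.414 RPKM (0.124 to 2.15). Lif was above Il6ra in 2 of the 3 young injured libraries and in none of the other 8, and Il11 was above Lif in 2 of 11 libraries. Osm and Il6 had no RPKM value and are given in CPM or counts.

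The place of Cntfr in that order depended on the group. Cntfr had a higher RPKM than Osmr in 0 of 3 young injured libraries, against 3 of 3 young sham libraries, and in 1 of 2 aging injured libraries, against 0 of 3 aging sham libraries. It was above Socs3 in 0 of 3 young injured libraries and in all 8 of the others. After Il6st, Cntfr was thus the highest of these genes in the 3 young sham valves and in none of the 3 young injured valves.

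**Figure D1:**
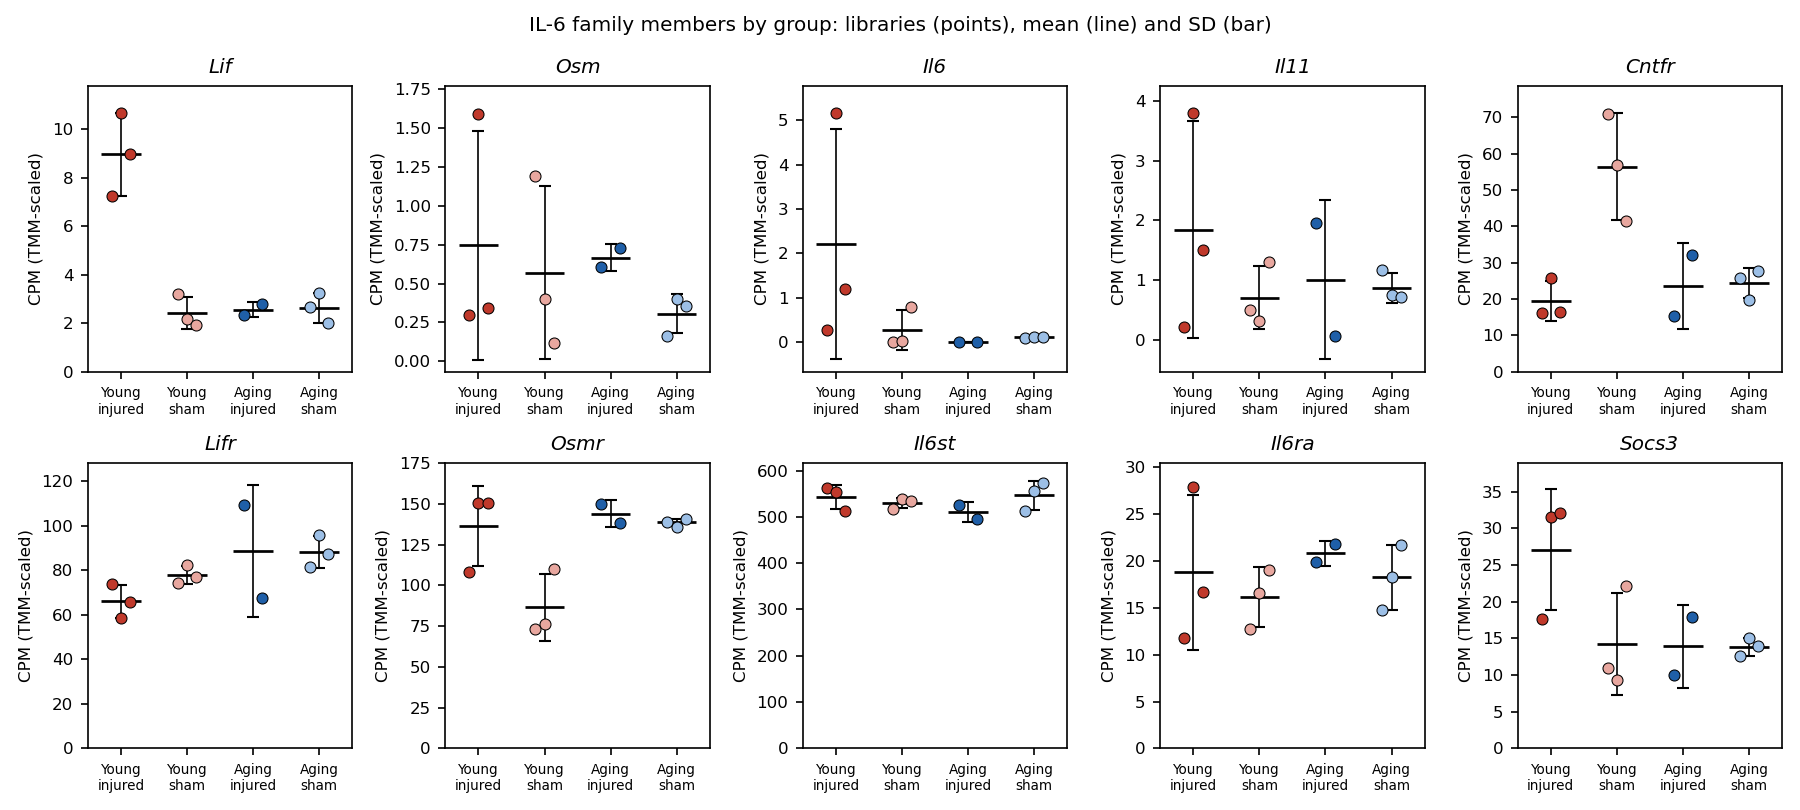
TMM-scaled CPM of the 10 genes (vertical axis, 1 panel per gene) in young injured, young sham, aging injured and aging sham valves. Points are libraries, lines are group means and bars are SD; Lif was high in the 3 young injured libraries alone, at 7.24 to 10.7 CPM, and Cntfr in the 3 young sham libraries alone, at 41.5 to 71.0 CPM.

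Among the chosen ligands Lif, Osm, Il6 and Il11, Lif was the 1 gene with all young injured libraries above all young sham libraries. Lif, leukaemia inhibitory factor, stood at 7.24, 10.7 and 8.96 CPM in young injured valves, against 3.19, 2.18 and 1.93 CPM in young sham valves. The lowest young injured value was more than the highest young sham value, so the groups did not overlap. Mean levels were 8.95 ± 1.71 CPM in young injured and 2.43 ± 0.667 CPM in young sham valves (SD, n = 3 each), a 3.67-fold difference with a log2 fold change of 1.87 ± 0.32 (SE). In aging valves Lif stood at 2.34 and 2.78 CPM after injury, against 2.65, 3.24 and 2.02 CPM after sham surgery. The aging groups overlapped, with a log2 fold change of -0.04 ± 0.35, and all 5 aging values lay below the lowest young injured one. That aging log2 fold change ran from -0.20 to 0.13 leaving out 1 library, and from -0.67 to 0.13 over 19 alternative settings.

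Osm, a ligand made largely by leukocytes, was counted at low levels. It had 11, 56 and 11 counts in young injured valves, against 41, 13 and 3 in young sham valves, and 17 and 25 counts in aging injured valves, against 6, 13 and 10 in aging sham valves. The young groups overlapped, and the 2 aging injured values of 0.60 and 0.73 CPM were above the aging sham values of 0.17, 0.40 and 0.35 CPM. Its log2 fold change was 0.38 ± 0.95 in young and 1.12 ± 1.07 in aging valves, and the young value was -0.84 without young injured 2, -0.09 without young sham 3 and 1.5 without young sham 1. With a term for the libraries with few detected genes, the aging value was -1.05. That term covers both aging injured libraries and young sham 1. Within a group it compares only young sham 1 with the other young sham libraries. Osm lies on chromosome 11 at 4236420 to 4241026 of mm10, on the plus strand, with 16530 bases between its end and the start of Lif.

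Il6, encoding the cytokine that names the family, was present in the young injured valves in very unequal amounts. It had 10, 182 and 38 counts in young injured libraries, against 0, 1 and 20 in young sham libraries. Young injured 1 lay below young sham 3, so the groups overlapped. The log2 fold change of 3.04 ± 1.48 was 1.44 without young injured 2 and 6.88 without young sham 3. In aging valves it had 0 and 0 counts after injury, against 3, 4 and 3 after sham surgery, and with so few counts no fold is given. The 3 libraries with 0 Il6 counts, aging injured 1 and 2 and young sham 1, were the 3 with few detected genes. The part of that in the Il6 values was not tested.

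Il11, a ligand best known from fibrosis and bone, showed the same unevenness. It had 8, 134 and 48 counts in young injured valves, against 17, 10 and 33 in young sham valves, and 55 and 2 counts in aging injured valves, against 42, 24 and 20 in aging sham valves. Both pairs of groups overlapped, with log2 fold changes of 1.40 ± 1.13 in young and 0.20 ± 1.24 in aging valves. The young value was 0.30 without young injured 2 and 2.19 without young sham 3. The aging value was -3.82 without aging injured 1 and 1.16 without aging injured 2.

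Young injured 2 was the library with the highest CPM for 6 of the 10 genes, namely Lif, Osm, Il6, Il11, Osmr and Il6ra. The same library stood apart in several marker lists. It had the highest fibroblast and valve interstitial sum of all libraries, at 23768 CPM, and the lowest cardiomyocyte sum, at 5310 CPM. It also held the most transcripts of 2 blood cell lists. The 7 neutrophil markers summed to 20.7 CPM there and to 2.08 and 2.99 CPM in the other young injured libraries, against 3.16 to 8.09 CPM in young sham libraries; Ly6g and Retnlg were at 0 in the young injured group, and none was at 0 throughout the young sham group. The 7 monocyte and macrophage markers, all detected, summed to 779 CPM in young injured 2 and to 437 and 529 CPM in the other young injured libraries, against 396 to 537 CPM in young sham libraries. The part of any of these cell types in the Osm, Il6 and Il11 values was not tested. Lif did not depend on that library in the same way, since its log2 fold change without it was 1.72.

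Among the receptors, Cntfr lay lower in young injured than in young sham valves and Osmr lay higher, while Il6st and Il6ra differed little. Cntfr stood at 16.2, 25.7 and 16.4 CPM in young injured valves, against 71.0, 56.9 and 41.5 CPM in young sham valves. All 3 young injured values were below all 3 young sham values. Group means were 19.5 ± 5.45 CPM in young injured and 56.5 ± 14.8 CPM in young sham valves (SD, n = 3 each), a level 2.90-fold lower after injury with a log2 fold change of -1.54 ± 0.30. In aging valves Cntfr stood at 15.3 and 32.0 CPM after injury, against 25.8, 19.8 and 27.7 CPM after sham surgery. The 2 aging injured libraries lay on either side of the aging sham ones, with a log2 fold change of -0.04 ± 0.33, which was 0.38 without aging injured 1 and -0.67 without aging injured 2.

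**Figure D2:**
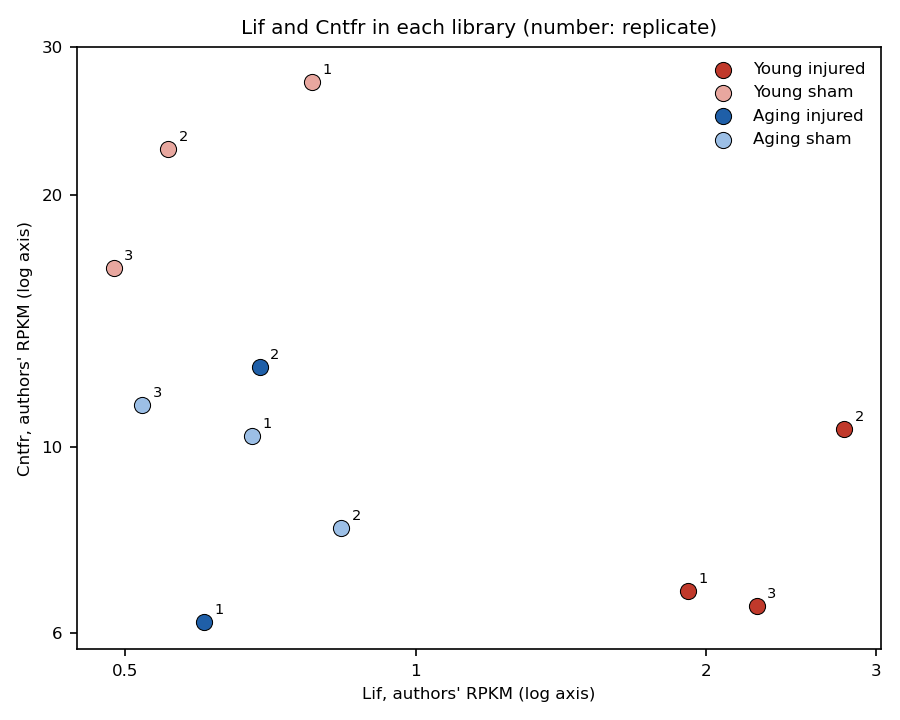
Authors' RPKM of Lif (horizontal, log axis) and Cntfr (vertical, log axis) in each of the 11 libraries, coloured by group, with the replicate number beside each point. Young injured libraries sit at the lower right with Lif between 1.92 and 2.78 RPKM, young sham libraries at the upper left with Cntfr between 16.3 and 27.2 RPKM, and the aging libraries at the lower left.

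The ligand-to-receptor balance of these 2 genes can be read within a library. The RPKM of Lif was 28.5%, 26.5% and 35.0% of that of Cntfr in young injured valves, against 2.87%, 2.45% and 2.98% in young sham valves. It was 9.77% and 5.55% in aging injured valves, against 6.57%, 10.5% and 4.65% in aging sham valves. The young groups lay apart, which the choice of these 2 genes for opposite directions after injury had already set, and the aging values lay between them. LIF itself does not use Cntfr, so this is a ratio of transcript levels and not of a ligand to its own receptor.

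Osmr, the oncostatin M receptor chain, stood at 108, 151 and 150 CPM in young injured valves, against 73.3, 76.4 and 110 CPM in young sham valves. Young injured 1 lay just below young sham 3, and the other values were apart. The means of 136 ± 24.4 CPM in young injured and 86.6 ± 20.5 CPM in young sham valves (SD, n = 3 each) differed 1.58-fold, with a log2 fold change of 0.66 ± 0.18. In aging valves it stood at 150 and 138 CPM after injury, against 139, 136 and 141 CPM after sham surgery. The aging groups overlapped, with a log2 fold change of 0.05 ± 0.20, and all 5 aging values were above all 3 young sham values.

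Lifr, the LIF receptor chain, stood at 73.7, 58.6 and 65.5 CPM in young injured valves, against 74.3, 82.4 and 76.8 CPM in young sham valves. The groups did not overlap, though by a small margin, and the log2 fold change was -0.24 ± 0.17. In aging valves it stood at 109 and 67.6 CPM after injury, against 81.6, 96.0 and 87.3 CPM after sham surgery, with a log2 fold change of 0.00 ± 0.19 that was -0.39 without aging injured 1 and 0.31 without aging injured 2. Il6st ranged from 513 to 562 CPM in young injured and from 518 to 539 CPM in young sham valves, and from 495 to 526 CPM in aging injured and from 512 to 573 CPM in aging sham valves. It was the steadiest of the 8 genes with RPKM, its highest library being 1.21 times its lowest. Il6ra, the IL-6 receptor, ranged from 11.7 to 27.9 CPM in young injured and from 12.7 to 19.1 CPM in young sham valves, with a log2 fold change of 0.22 ± 0.29 that was -0.19 without young injured 2. In aging valves it stood at 19.9 and 21.8 CPM after injury, against 14.8, 18.3 and 21.8 CPM after sham surgery, overlapping. The gene overlaps the antisense gene Gm42809, which had 6 counts over all libraries.

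Socs3, the feedback inhibitor of gp130, stood at 17.6, 31.6 and 32.2 CPM in young injured valves, against 11.0, 9.39 and 22.2 CPM in young sham valves. Young sham 3 lay above young injured 1, so the groups overlapped. The log2 fold change was 0.94 ± 0.35, a 1.91-fold difference, and 1.41 without young sham 3. In aging valves Socs3 stood at 9.94 and 17.9 CPM after injury, against 12.6, 14.99 and 13.9 CPM after sham surgery, with a log2 fold change of 0.01 ± 0.39, which was 0.37 without aging injured 1 and -0.48 without aging injured 2.

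The series' design text sets a false discovery rate under 0.1 with over 2-fold change; in edgeR, Lif was past both upward and Cntfr past both downward after injury in young valves. Over all genes tested, 0.418% were past both, 0.403% upward and 0.0155% downward. Because the genes were chosen on that comparison, nothing is read from these counts. Neither was past both in every one of 19 alternative settings. Lif was not in 4: the compared groups alone, and without young injured 2, young sham 2 or young sham 3. Cntfr was not in 11. These were the omission of young injured 1 or 2, young sham 1 or 2, or any aging sham library. The others were the replicate block, the compared groups alone, the term for few detected genes and the sex term. The settings are not independent. The term for few detected genes and the omission of young sham 1 gave the same young log2 fold changes, 2.12 for Lif and -1.34 for Cntfr. In non-overlap of the young groups, Lif was above and Cntfr and Lifr below, against 9.54% of all genes above and 5.07% below, 14.6% in all. In aging valves 0% of all genes were past both thresholds in edgeR and 8.83% had an unadjusted p under 0.05, while DESeq2 called 329 genes; none of the 10 was among the calls of either. Of the 10, Osm was above and Il6 below without overlap, against 11.1% and 16.7% of all genes, 27.8% in all.

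**Figure D3:**
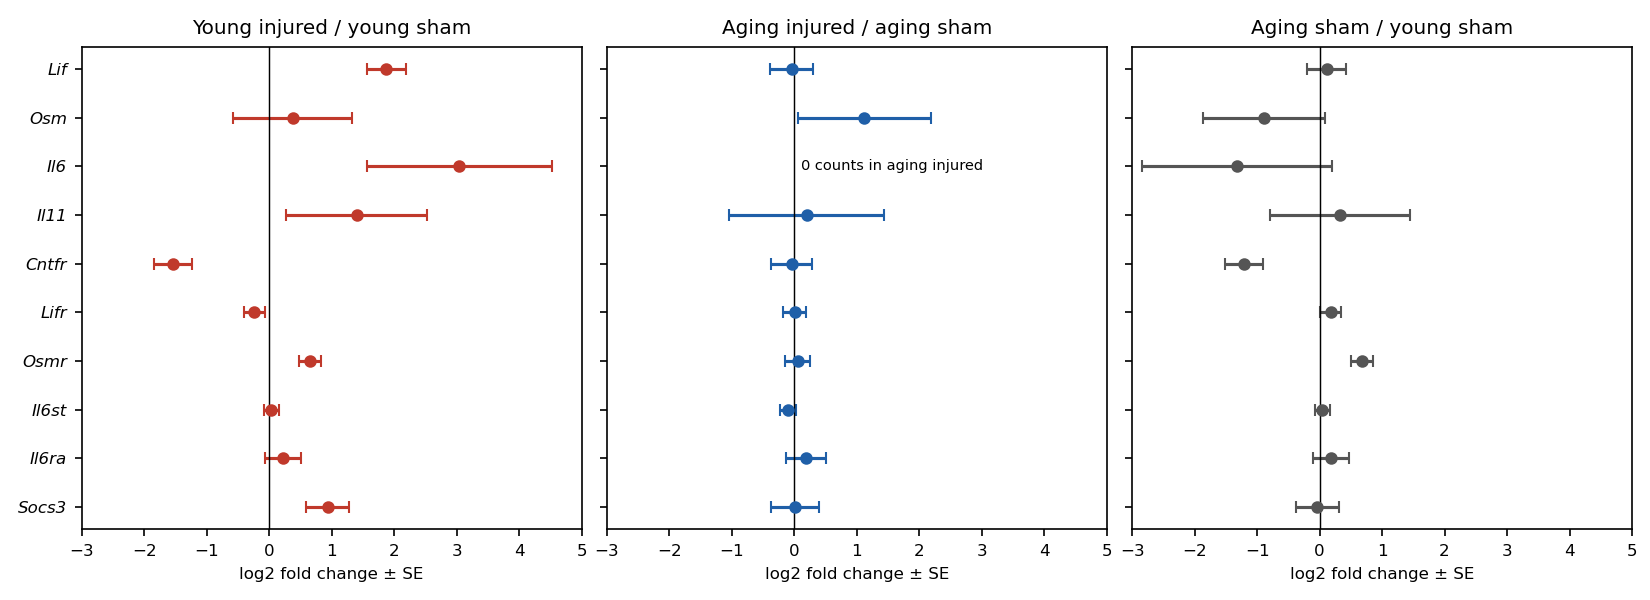
Log2 fold changes with SE of the 10 genes (rows) for young injured over young sham, aging injured over aging sham and aging sham over young sham valves (panels). In the young injury panel Lif lies at 1.87 and Cntfr at -1.54, and Il6 lies farther out at 3.04 with a wide error. Most aging injury values lie near 0. Cntfr at -1.21 and Osmr at 0.68 lead the age panel apart from the wide errors of Osm, Il6 and Il11.

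Summed levels of fibroblast and of Schwann cell markers also differed between young injured and young sham valves. The 7 fibroblast and valve interstitial markers, all detected, summed to 19376 to 23768 CPM in young injured valves, against 14095 to 17441 CPM in young sham valves, without overlap. High genes weigh most in such a sum. Col3a1, 1 of the 7, had means of 5201 CPM in young injured and 1860 CPM in young sham valves. The median log2 fold change of the 7 was 0.35. The 5 Schwann cell markers, all detected, summed to 51.8 to 64.9 CPM in young injured valves, against 68.7 to 104 CPM in young sham valves, also without overlap. In aging valves the Schwann cell sums were 61.1 to 64.2 CPM after injury, against 72.4 to 80.5 CPM after sham surgery, again without overlap. The Cntfr values of those aging groups overlapped, with a log2 fold change of -0.04 ± 0.33. Fibroblast sums in aging valves overlapped, at 15518 to 17931 CPM after injury, against 13498 to 15746 CPM after sham surgery. The 7 cardiomyocyte markers summed to 5310 to 22400 CPM in young injured valves, against 11869 to 22818 CPM in young sham valves, and with the cardiomyocyte marker level as a covariate the log2 fold changes were 1.78 for Lif and -1.70 for Cntfr. The part of fibroblasts and Schwann cells in the Lif and Cntfr values was not tested.

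Age was compared in sham valves, and the same young sham libraries serve this comparison and the young injury one. Since Lif and Cntfr were chosen on those libraries, their age values are given without a test. Cntfr stood at 25.8, 19.8 and 27.7 CPM in aging sham valves, against 71.0, 56.9 and 41.5 CPM in young sham valves. The groups did not overlap, and the means of 24.4 ± 4.16 CPM in aging sham and 56.5 ± 14.8 CPM in young sham valves (SD, n = 3 each) differed 2.31-fold. The log2 fold change was -1.21 ± 0.30. Osmr stood at 139, 136 and 141 CPM in aging sham valves, against 73.3, 76.4 and 110 CPM in young sham valves, also without overlap. Its log2 fold change of 0.68 ± 0.18, a 1.60-fold difference, did not pass in edgeR's quasi-likelihood test over all genes (adjusted p = 0.331).

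Of the 8 genes tested for age, the 7 other than Osmr had adjusted p-values of 0.804 to 0.990 in edgeR, and their group values overlapped. Lif differed little, with 2.64 ± 0.611 CPM in aging sham and 2.43 ± 0.667 CPM in young sham valves (SD, n = 3 each) and a log2 fold change of 0.11 ± 0.31. Lifr had a log2 fold change of 0.18 ± 0.17, Il6st of 0.04 ± 0.12 and Socs3 of -0.04 ± 0.35. Of the 8 genes, 0 were past both thresholds in edgeR and 0 in DESeq2, and 1 had an unadjusted p under 0.05. Over all genes, 0.0258% were past both in edgeR (0.0207% upward and 0.00516% downward) and 9.19% had an unadjusted p under 0.05. Among the 10, non-overlap was seen for Osmr above and Cntfr below, against 11.8% and 9.08% of all genes, 20.9% in all. The 6 smooth muscle markers summed to 20345 to 24484 CPM in aging sham valves, against 7332 to 17991 CPM in young sham valves, without overlap. The 5 mesothelial markers summed to 105 to 204 CPM in aging sham valves, against 13.8 to 57.3 CPM in young sham valves, and the 7 lymphocyte markers to 7.84 to 13.3 CPM in aging sham valves, against 0.058 to 5.68 CPM in young sham valves, both without overlap. All markers of these 3 lists were detected in both groups, and their part in the Cntfr and Osmr differences was not tested.

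Whether injury acted differently at the 2 ages was examined as an interaction, the injury effect in aging valves minus that in young valves. The interaction holds the young injury effect, and the genes were chosen on the injury values of Lif and Cntfr. It is therefore a description without a test for Lif, Cntfr and the other 8 genes. On the log2 scale it was -1.92 ± 0.47 for Lif and 1.49 ± 0.44 for Cntfr. Osmr had -0.60 ± 0.27 and Socs3 -0.93 ± 0.52. Over all genes, 0% were past both thresholds in edgeR and 7.86% had an unadjusted p under 0.05. Both aging injured libraries were among the 3 with few detected genes, and the other was young sham 1. A term for few detected genes therefore rests on young sham 1 against the other young sham libraries. It cannot separate few detected genes from aging injury. With that term the interaction was -2.79 for Lif and 0.77 for Cntfr.

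The other members of the pathway were read from lists of 49 genes, and in young injury 9.19% of all genes had an unadjusted p under 0.05 and 0.418% passed in edgeR. The lists were chosen with earlier results of these data known. Their counts and medians beside those of all genes are therefore a description and support nothing. Of 8 further ligands, 6 had enough counts to be tested, and 0 passed after injury in young valves in edgeR or DESeq2, with 2 at an unadjusted p under 0.05. The median log2 fold change of the 6 was 0.34, against 0.01 over all genes. Clcf1, whose product signals through Cntfr, stood at 14.8, 21.0 and 13.8 CPM in young injured valves, against 12.1, 10.1 and 13.3 CPM in young sham valves. The groups did not overlap, by a narrow margin, and the log2 fold change was 0.48 ± 0.21 (edgeR, adjusted p = 0.518). Il27, a cytokine that pairs with Ebi3, had 5 counts in young injured against 40 in young sham valves (log2 fold change -2.90 ± 1.69, edgeR, adjusted p = 0.664). Of those 40 counts, 35 were in young sham 1, and without it the log2 fold change was -0.67.

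Of 3 further receptors, 0 passed in edgeR or DESeq2 after injury in young valves, with 1 at an unadjusted p under 0.05, and their median log2 fold change was 0.06. Il27ra, a partner of gp130 for IL-27, had a log2 fold change of 0.76 ± 0.31 (edgeR, adjusted p = 0.467), with all young injured values above the young sham ones. Il11ra1, the IL-11 receptor, had 0.06 ± 0.17 (edgeR, adjusted p = 0.958), and Il31ra -1.52 ± 1.88 (edgeR, adjusted p = 0.881) on 15 counts in young injured and 43 in young sham valves, all 43 of them in young sham 1.

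The kinases and transducers gave no call either. Of 10 JAK-STAT genes, 0 passed in edgeR or DESeq2 in young injury, 0 had an unadjusted p under 0.05, and the median log2 fold change was -0.03. Stat3 had 0.34 ± 0.18 (edgeR, adjusted p = 0.597), the adaptor Gab1 -0.27 ± 0.12 (edgeR, adjusted p = 0.554) and the adaptor Grb2 -0.18 ± 0.11 (edgeR, adjusted p = 0.693). Of 8 feedback inhibitors and receptor sheddases, 0 passed in edgeR or DESeq2 and 2 had an unadjusted p under 0.05, against 9.19% of all genes, with a median of 0.28. These were Adam17, which sheds the IL-6 receptor, at 0.41 ± 0.14 (edgeR, adjusted p = 0.331), and the related protease Adam10 at 0.34 ± 0.15 (edgeR, adjusted p = 0.517). Socs1, another inhibitor of JAK kinases, had 0.86 ± 0.45 (edgeR, adjusted p = 0.610).

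Of 20 genes known to respond to STAT3, 2 rose after injury in young valves in edgeR and 0 fell, against 0.403% and 0.0155% of all genes, and 9 had an unadjusted p under 0.05, against 9.19%. DESeq2 called 4, Timp1, Serpina3n, Lcn2 and Saa3, all higher after injury, and edgeR called 4 without young injured 1. In 14 of the 19 alternative settings the count was 1. The list's median log2 fold change was 0.50, with 15 of 20 above 0, against a median of 0.01 and 51.5% above 0 over all genes. Because the list was chosen with earlier results of these data known, nothing about STAT3 activity is read from these values. Timp1, an inhibitor of matrix metalloproteinases, stood at 172, 339 and 194 CPM in young injured valves, against 43.3, 24.4 and 35.3 CPM in young sham valves, with a log2 fold change of 2.77 ± 0.28 (edgeR, adjusted p = 0.0054), and passed in all 19 alternative settings. Serpina3n, an acute-phase protease inhibitor, stood at 243, 590 and 356 CPM in young injured valves, against 184, 100.2 and 138 CPM in young sham valves, with a log2 fold change of 1.49 ± 0.32 (edgeR, adjusted p = 0.098). Neither gene's groups overlapped. The Serpina3n call was lost in 14 of 19 settings, including the omission of any library but young injured 1 or 3, and without young injured 2 its log2 fold change was 1.08 (edgeR, adjusted p = 0.403). Ccnd1, a cell cycle cyclin, was 1.54-fold higher, under the fold threshold (log2 fold change 0.62 ± 0.15, edgeR, adjusted p = 0.153). Saa3, an acute-phase protein named here after its values were seen, had 0, 116 and 14 counts in young injured and 0 in all young sham valves. The groups overlapped at 0, and it did not pass in edgeR (adjusted p = 0.287). Its summed counts were at least 38.5-fold higher with 3 counts taken as the floor for the sham group. That bound rests on young injured 2, which held 116 of the 130 counts, and is not one for each injured valve.

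In aging valves 0 of the 47 pathway genes tested passed after injury in edgeR, 4 had an unadjusted p under 0.05, against 8.83% of all genes, and DESeq2 called 2, Timp1 higher and Cntf lower. Timp1 stood at 127 and 140 CPM in aging injured valves, against 66.5, 48.2 and 53.8 CPM in aging sham valves, without overlap. Its log2 fold change of 1.25 ± 0.29 did not pass in edgeR (adjusted p = 0.326) and passed in DESeq2 (1.26, adjusted p = 0.0166). Serpina3n stood at 323 and 481 CPM in aging injured valves, against 270, 205 and 256 CPM in aging sham valves, with a log2 fold change of 0.72 ± 0.35 (edgeR, adjusted p = 0.593). Both were higher in every aging injured than in every aging sham library. Cntf, ciliary neurotrophic factor, a ligand of Cntfr described here after its values were seen, had 0 and 2 counts in aging injured valves, against 52, 25 and 15 in aging sham valves (edgeR, adjusted p = 0.379). In young valves it had 53, 39 and 38 counts after injury, against 7, 61 and 35 after sham surgery. Its 3 lowest libraries were the 3 with few detected genes, whose part in the difference was not tested. The STAT3-responsive list had a median of 0.30, with 16 of 20 above 0, against -0.01 over all genes. For age in sham valves 0 of the 47 passed in edgeR, 9 had an unadjusted p under 0.05, against 9.19% of all genes, and DESeq2 called 2. For the interaction 0 passed in edgeR, 4 had an unadjusted p under 0.05, against 7.86% of all genes, and DESeq2 called 1.

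**Figure D4:**
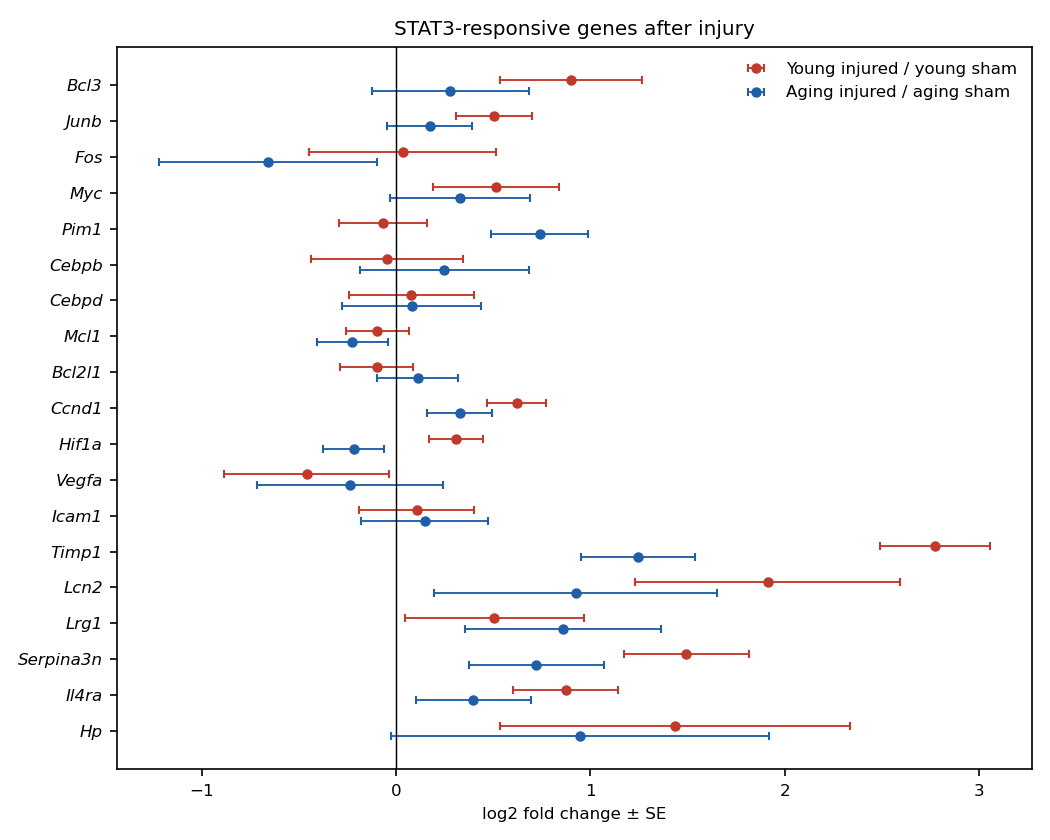
Log2 fold changes with SE of 19 of the 20 STAT3-responsive genes (rows; Saa3 is left out because it had 0 counts in young sham valves) for young injured over young sham and aging injured over aging sham valves. Timp1 lies farthest to the right in young valves at 2.77, and Pim1, Cebpb and Cebpd are among the genes near 0 there.

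The genes with the pattern most like that of Lif were sought among 15595 tested genes by Pearson correlation of log2 CPM over the 11 libraries, which share depth and group structure. The 5 highest were Aspm (r = 0.946), Vmp1 (r = 0.935), Mgat2 (r = 0.924), Col3a1 (r = 0.919) and Fstl1 (r = 0.918). Spearman's rho for these was 0.700 to 0.909, and r without the 2 libraries farthest from the median of Lif was 0.809 to 0.899. Over the 8 libraries that were not young injured, r was 0.309, 0.617, 0.817, 0.192 and 0.580 in the same order. For Cntfr, 4 of the 5 highest were Fbxl12 (r = 0.905), Epas1 (r = 0.902), Sgsm1 (r = 0.880) and Fat3 (r = 0.875). Spearman's rho for these 4 was 0.836 to 0.900, and r without the 2 libraries farthest from the median of Cntfr was 0.763 to 0.845. Over the 8 libraries that were not young sham, r was 0.830, 0.737, 0.686 and 0.681 in the same order. No test was run on these likenesses.

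RefSeq promoter sequence was available for 9 of the 10 genes on GRCm38.p6, the assembly behind mm10, in 16 entries, of which 250 bases before the listed start are considered. Lif, Cntfr and Socs3 are shown because the 10 genes were chosen on Lif and Cntfr and because Socs3 is the textbook STAT3 target. Each is given 5′ to 3′ on the strand of its gene, with capitals for a match to the STAT motif TTCNNNGAA or the AP-1 motif TGANTCA, both searched on both strands and reading the same on each.
Lif, chr11:4257318-4257567, plus strand: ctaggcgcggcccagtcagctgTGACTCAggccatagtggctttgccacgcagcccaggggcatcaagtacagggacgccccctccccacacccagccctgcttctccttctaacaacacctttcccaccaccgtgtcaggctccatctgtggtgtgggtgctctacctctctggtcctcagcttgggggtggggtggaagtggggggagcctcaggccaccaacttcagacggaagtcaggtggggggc
Cntfr, most upstream listed start, chr4:41696038-41696287, minus strand: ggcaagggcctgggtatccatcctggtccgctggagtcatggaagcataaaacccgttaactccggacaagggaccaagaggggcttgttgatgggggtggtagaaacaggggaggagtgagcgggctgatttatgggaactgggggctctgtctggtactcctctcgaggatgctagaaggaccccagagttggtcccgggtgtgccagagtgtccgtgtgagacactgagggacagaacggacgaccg
Socs3, chr11:117969367-117969616, minus strand: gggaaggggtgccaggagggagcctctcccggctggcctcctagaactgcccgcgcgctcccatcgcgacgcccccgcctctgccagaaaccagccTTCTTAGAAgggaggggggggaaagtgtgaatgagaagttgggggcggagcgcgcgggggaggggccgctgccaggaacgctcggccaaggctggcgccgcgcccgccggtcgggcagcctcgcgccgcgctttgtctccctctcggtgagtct
The STAT motif was found in 1 of the 16 entries, that of Socs3, as TTCTTAGAA with its first base 154 bases before the listed start. It occurs in 7.01% of 32817 RefSeq promoter windows of the same length. Of the 16 entries, the AP-1 motif was found in 1 each of Lif, Il6 and Il11, against 6.75% of all windows. The Cntfr window held neither. These are matches of letters and not binding sites. The Socs3 and Cntfr windows shown lie inside the deposited spans of their genes, which reach 117970047 and 41697089. They precede a listed RefSeq start and not the 5′ end of the gene as counted.

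The deposited spans place the genes on 7 chromosomes of mm10. Lif lies on chromosome 11 at 4257557 to 4272514 (plus strand), Cntfr on chromosome 4 at 41657498 to 41697089 (minus strand) and Socs3 on chromosome 11 at 117966079 to 117970047 (minus strand). Osmr, on chromosome 15 at 6813577 to 6874969 (minus strand), ends 254589 bases before Lifr begins at 7129559 (plus strand). Il6 lies on chromosome 5 at 30013114 to 30019981 (plus strand), Il11 on chromosome 7 at 4772373 to 4782857 (minus strand), Il6st on chromosome 13 at 112464070 to 112510086 (plus strand) and Il6ra on chromosome 3 at 89864059 to 89913196 (minus strand). Counts are per gene, so exons, introns and UTRs are not told apart.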

How the data were processed

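Per the labels' protocols, 200 ng of DNase-treated valve RNA went into each mRNA library, sequenced in paired reads of 150 nt. The submitters' processing notes name mm10 and TopHat2 version 2.1.0. The read counter with its strand setting and annotation is not given in the sources used here, which leaves reads of overlapping genes uncertain. Raw counts of 46983 genes were deposited by the authors. RPKM values for 13526 genes, without mitochondrial ones, were deposited by the authors as well. In the counts, 1 library column matched no sample label and was not used.

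Genes were kept by filterByExpr with a minimum count of 10. The 11 libraries entered 1 fit of 4 group means in edgeR 4.0.16 (R 4.3.3, limma 3.58.1) with TMM scaling, quasi-likelihood F tests and Benjamini-Hochberg adjustment over 19366 genes. CPM is relative to the counts of the kept genes. A gene was called at an adjusted p under 0.1 and a fold over 2. SE is |log2 fold change| over the root of F. Log2 CPM used a prior count of 2. DESeq2 1.42.0 and other settings were alternatives, and the fits were tested on simulated data.

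The 10 genes and all lists were chosen with earlier results of these data known. Named genes were the 10, the 5 most like Lif and the 5 most like Cntfr, any pathway gene called in edgeR, and the 3 of each list with the smallest p in young injury. Of these, 2 genes are not reported here. Each library came from its own mouse. Counts of libraries of a group differed by 16.9 to 188 chi-square units per degree of freedom, so no pair agreed within sampling noise. The floor of 3 counts covers counting error only.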

Additional observations from a re-analysis of the deposited data

How the results depend on the processing

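Counts of called genes moved with the processing. Injury in young valves gave 81 genes in edgeR, 268 in DESeq2, 11 with the compared groups alone, 43 with a term for few detected genes, and 16 to 447 when 1 library was left out (lowest without young injured 2, highest without young injured 3). Injury in aging valves gave 0, and 1 without the filter, 329 in DESeq2, 3 with the term for few detected genes, and 0 to 261 leaving out 1 library (261 without aging injured 1). Age in sham valves gave 5, and 14 without the filter, 200 in DESeq2, 13 with the compared groups alone, 2 with the cardiomyocyte covariate, 1 with the term for few detected genes, 3 with a sex term, and 1 to 10 leaving out 1 library. The interaction gave 0, and 174 in DESeq2. The cause of these shifts was not tested. The cardiomyocyte, few-detected-genes and sex terms were chosen after seeing the data. The few-detected-genes term covers the whole aging injured group and young sham 1. It rests on young sham 1 against the other young sham libraries and is no separate check on detection.

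Some values changed sign, most of them near 0 or from genes with few counts. With the cardiomyocyte covariate the age log2 fold changes were -0.020 for Lif, -0.022 for Il6st, -0.039 for Il6ra and 0.11 for Socs3, the Il6ra interaction was 0.19 and Il11ra1 in young injury was -0.094. With the term for few detected genes, Osm was 0.22 for age and -2.54 for the interaction, the Il6ra interaction was 0.60 and Il31ra in young injury was 5.26. With the sex term Osm for age was 0.21 and Il31ra was 0.0035. Leaving out 1 library, age values ran from -0.063 to 0.36 for Lif, -1.37 to 0.22 for Osm, -1.92 to 2.52 for Il6, -0.035 to 1.11 for Il11 and -0.26 to 0.44 for Socs3. Interactions ran from -0.38 to 1.97 for Osm, -0.14 to 0.54 for Lifr and -0.28 to 0.39 for Il6ra. Il11ra1 in young injury ran from -0.13 to 0.21.

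Replicate numbers are shared between groups, and whether they mark paired libraries was not settled. Same-numbered deviations correlated at -0.06 to 0.25, with the highest value for replicate 3 of the young groups. A correlation over all genes cannot show that libraries were unpaired, since a shared difference may touch only some genes. With the replicate block 55 genes were called in young injury, 0 in aging injury, 5 for age and 0 for the interaction; Socs3 for age became 0.035, the Il6ra interaction 0.10 and Il31ra in young injury 0.99. Genes with few counts, such as Osm, Il6 and Il11, are limited by depth and by 2 or 3 mice a group.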
